A study of Mus musculus with 4 samples.

Results

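Chemokines and their receptors were followed across the cells and the tissue of the injured Achilles tendon site in mice. The set holds every gene whose symbol begins with Ccl and a number, every Cxcl, Ccr, Cxcr and Ackr gene, and Cx3cl1, Cx3cr1, Xcl1, Xcr1, Pf4 and Ppbp. Single-cell RNA sequencing (scRNA-seq) listed 68 such gene identifiers of 32285, under 62 symbols, of which 46 identifiers were ligands and 22 were receptors. The spatial assay carried 54 of them among 19465 genes, with 32 ligands and 22 receptors, and had no probe for Cxcl2, Ccl19, Cx3cl1 or the Ccl21 and Ccl27 genes. Of the 68 identifiers, 10 had no UMI (unique molecular identifier, 1 counted transcript) in either library, and these were Ccl26, Ccl27b and 8 further copies of Ccl19, Ccl21a, Ccl21b, Ccl21c and Ccl27a. Reads of these near-identical copies cannot be split safely, so the values of Ccl19, Ccl21a and Ccl27a are those of the symbol as counted and are uncertain between copies. Ccl21b and Ccl21c are not told apart from Ccl21a.

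The study asked how HIF-1α acts in mesenchymal progenitor cells (MPCs) that form ectopic bone after burn/tenotomy (BT), a skin burn joined with a cut of the Achilles tendon. The scRNA-seq gave 2 libraries of unsorted cells from mice labelled Hoxa11CreER;ROSA-LSL-TdTomato;Hif1a fl/fl, taken 7 days after BT. The sections A1 and B1 were cut from the tenotomy site of wild-type male C57BL/6 mice of 10 weeks, also 7 days after BT, and measured by Visium for fixed tissue, which counts probe pairs in barcoded spots that each cover several cells. Replicates 1 and 2 went into the same scRNA-seq library and replicate 3 into a library of its own, and nothing in the labels tells if both sections are of the same animal. The p-values measure how much differences between cell classes or tissue regions vary between the 2 libraries or 2 sections. That spread is pooled over all classes or regions of a fit and shared across genes, and it may be technical.

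All mice of the scRNA-seq had been given tamoxifen at 75 mg/kg for 5 days, which lets the Cre enzyme cut the floxed Hif1a gene in cells of the Hoxa11 lineage and leaves other cells with an intact gene. Mice without Cre were not analysed here, so the effect of the deletion was not measured. Hif1a itself was counted at 435 and 341 CPM (UMIs scaled to a fixed library total) in MPCs and 539 and 465 CPM in fibroblasts. Counts per gene do not show whether the floxed exon was cut. Throughout, a pair of values gives the library of replicates 1 and 2 first and that of replicate 3 second, or section A1 first and B1 second. CPM were computed from the UMIs summed over the cells or spots of a group.

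Chemokines are small secreted proteins that attract leukocytes through G protein-coupled receptors. Ligands with the CXC motif and a short glutamate-leucine-arginine stretch bind Cxcr2 and draw neutrophils, several CC ligands bind Ccr2 and draw monocytes, and Cxcl12 and its receptor Cxcr4 hold leukocytes and progenitor cells in place. Atypical receptors (Ackr genes) bind chemokines without the usual G protein signal and remove or carry them.

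The libraries held 31536402 and 23379476 UMIs in 2303 and 1266 barcodes, of which 1276 and 795 cells were kept. They shared 1 barcode, and 0 barcodes were kept in both. The sections held 2259744 and 2308754 UMIs in 3504 and 3185 kept spots, with medians of 460 and 518 UMIs per spot. Clusters formed without the chemokine and receptor genes gave 10 cell classes with at least 20 cells in each library. These were MPCs (164 and 143 cells), fibroblasts (116 and 89), smooth muscle cells or pericytes (97 and 53), endothelial cells (100 and 62), Schwann cells (30 and 24), keratinocytes (73 and 56), macrophages (153 and 90), dendritic cells (46 and 22), T or NK cells (145 and 48) and a Chil3-led myeloid cluster (128 and 54). The Chil3-led cluster met the marker rule for neutrophils, yet it was led by Chil3, F10, Clec4e and Treml4 and its 16 macrophage markers summed to 23876 and 23541 CPM against 2319 and 1950 CPM for 14 neutrophil markers, so it is called by its leading gene. A class with 13 neutrophil markers formed when cells with a low share of ribosomal UMIs were kept (39 and 20 cells), and neutrophil values come from that fit. Finer clusters gave a smaller Chil3-led cluster, of 37 and 15 cells, which was too small to be fitted. The dendritic class was named from 5 dendritic markers beside 3 B cell markers, and its leading genes held Cd207, Siglech and Cd209a but also Cd79a, Igkc and Mzb1. With doublets removed the count was 4 against 3, and the cluster was then left unnamed, as it was without the ribosomal limit. The 7 B cell markers summed to 539 and 81.4 CPM in it, with 0 and 6 of them at 0, against at most 93.5 CPM in the other classes compared, and 20 of 46 and 3 of 22 of its cells held at least 3 UMIs of them.

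Chemokine ligands and receptors made up 0.419% and 0.441% of all UMIs in the libraries and 0.173% and 0.241% in the sections. Of the 10 classes, macrophages carried the highest summed level, with 19124 and 18421 CPM over all members. The Chil3-led cells followed with 10421 and 11010 CPM, and fibroblasts held 8697 and 8020 CPM beside 6661 and 9037 CPM in smooth muscle cells or pericytes, which gave these 2 classes in opposite order. Mast cells, of which 8 and 14 were too few to be compared, held 18330 and 5689 CPM, and levels called highest below are so among the classes compared. MPCs, whose cells had medians of 50043 and 50787 UMIs, held 1655 and 2132 CPM. By CPM, Schwann cells and keratinocytes lay below them in both libraries, of the classes compared. Per cell, T or NK, dendritic and endothelial cells also lay below MPCs, while macrophages, Chil3-led cells, fibroblasts and smooth muscle cells or pericytes stayed above. MPCs held 13266 and 15484 member UMIs in 164 and 143 cells, and T or NK cells 6758 and 1561 in 145 and 48. Receptors accounted for 1757 and 1879 CPM in Chil3-led cells and for 68.8 and 104 CPM in MPCs.

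**Figure D1:**
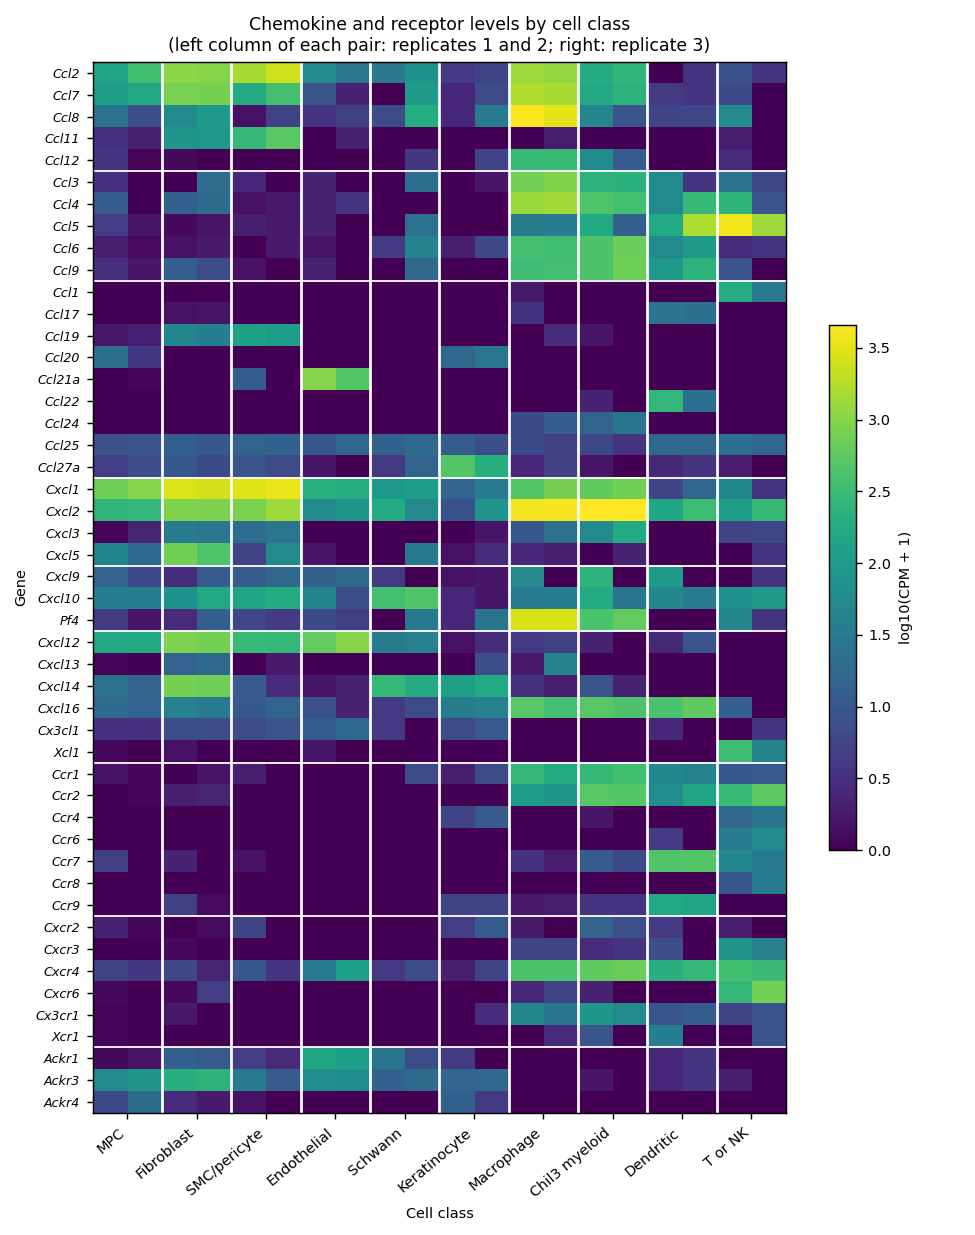
Levels of members that passed the filter on low counts, with 1 left out, as log10(CPM + 1), in 10 cell classes (columns, 2 libraries each) with genes in rows grouped by role. Ligands of monocyte receptors and of Ccr1 are bright in macrophages (Ccl8 at 4233 and 3280 CPM), while Cxcl12, Cxcl14 and Cxcl5 are bright in fibroblasts.

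On the log scale, each class was set against the mean of the remaining classes with equal weights, so a class can be called higher while another class stands above it. Of the members, 49 passed the filter on low counts and were tested, and those that did not included Cxcr1, Ppbp, Cxcl15, Cxcl17, Cxcr5, Ackr2, Ccr3, Ccr10 and Ccl28. A member can pass that filter through the class in which it is high, so the counts below describe the members and support nothing further. In macrophages 22 members were higher, beside 22.0% of all genes tested, and 2 were lower, beside 11.2% (edgeR quasi-likelihood test, Benjamini-Hochberg adjusted p over all genes). Their median log2 fold change was 1.80, against -0.06 over all genes. In Chil3-led cells 25 were higher (22.3% of all genes), 22 of them with the same sign in both libraries, and 1 was lower (11.9%), with a median of 1.85 against -0.11. In fibroblasts 18 were higher (31.4% of all genes) and 3 lower (12.2%), and in smooth muscle cells or pericytes 13 were higher (23.6%) and 5 lower (11.5%). MPCs were higher for 9 members where 33.4% of all genes were higher, and lower for 4 where 15.5% were lower.

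The ligands of Cxcr2 stood in both stromal and myeloid cells. Cxcl1, which draws neutrophils, was highest in smooth muscle cells or pericytes at 3084 and 3615 CPM and in fibroblasts at 2833 and 2606 CPM. It stood at 714 and 971 CPM in MPCs and at 475 and 810 CPM in macrophages. Smooth muscle cells or pericytes were thus above fibroblasts in both libraries by CPM, but fibroblasts were above them in mean UMIs per cell, with 97.3 and 105 against 62.4 and 80.8, and the order of the top pair rests on the scale. Endothelial cells held 208 and 192 CPM and keratinocytes 13.6 and 32.6 CPM, far under the stromal classes in both libraries.

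Cxcl2, made by activated myeloid cells, was highest in Chil3-led cells at 4503 and 4584 CPM and macrophages at 3974 and 4121 CPM, and lower in fibroblasts at 908 and 861 CPM. The libraries differed by little beside the gap to fibroblasts. Within macrophages the level was uneven, since the 10% of cells with most Cxcl2 held 69.8% and 64.9% of its UMIs while the deepest 10% of cells held 32.4% and 28.4% of all UMIs. Cxcl3 was scarcer, at 54.1 and 172 CPM in Chil3-led cells and 30.9 and 26.2 CPM in fibroblasts. Cxcl5, a ligand of mesenchymal and epithelial origin, was highest in fibroblasts at 752 and 455 CPM, with 4.59 and 53.2 CPM in smooth muscle cells or pericytes and 44.0 and 16.9 CPM in MPCs.

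Their receptor Cxcr2 was counted in few of these cells. Chil3-led cells held 13.5 CPM (95% Poisson interval 8.38 to 20.7, counting error only) and 6.76 CPM (2.20 to 15.8), and macrophages held 1 and 0 UMIs. In the neutrophil class Cxcr2 reached 880 CPM (748 to 1029) and 926 CPM (732 to 1155), so that the neutrophil class lay above every other class of that fit in both libraries. Neutrophils also held the highest Cxcl2, at 9843 and 11296 CPM, and their Cxcl3 reached 280 and 178 CPM. No UMI of Cxcl5 was counted in 39 and 20 neutrophils, which allows up to 16.8 and 35.6 CPM. Of 47 members tested in that fit, 12 were higher in neutrophils (12.2% of all genes) and 1, Cxcl16, was lower (11.7%). Calls among the 12 that differed in sign between the libraries included Ccr2 and Cx3cr1. The median log2 fold change over the 47 members was -1.83 against -1.15 over all genes. The neutrophil sums held 178406 and 84276 UMIs, the smallest of the classes compared in that fit.

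**Figure D2:**
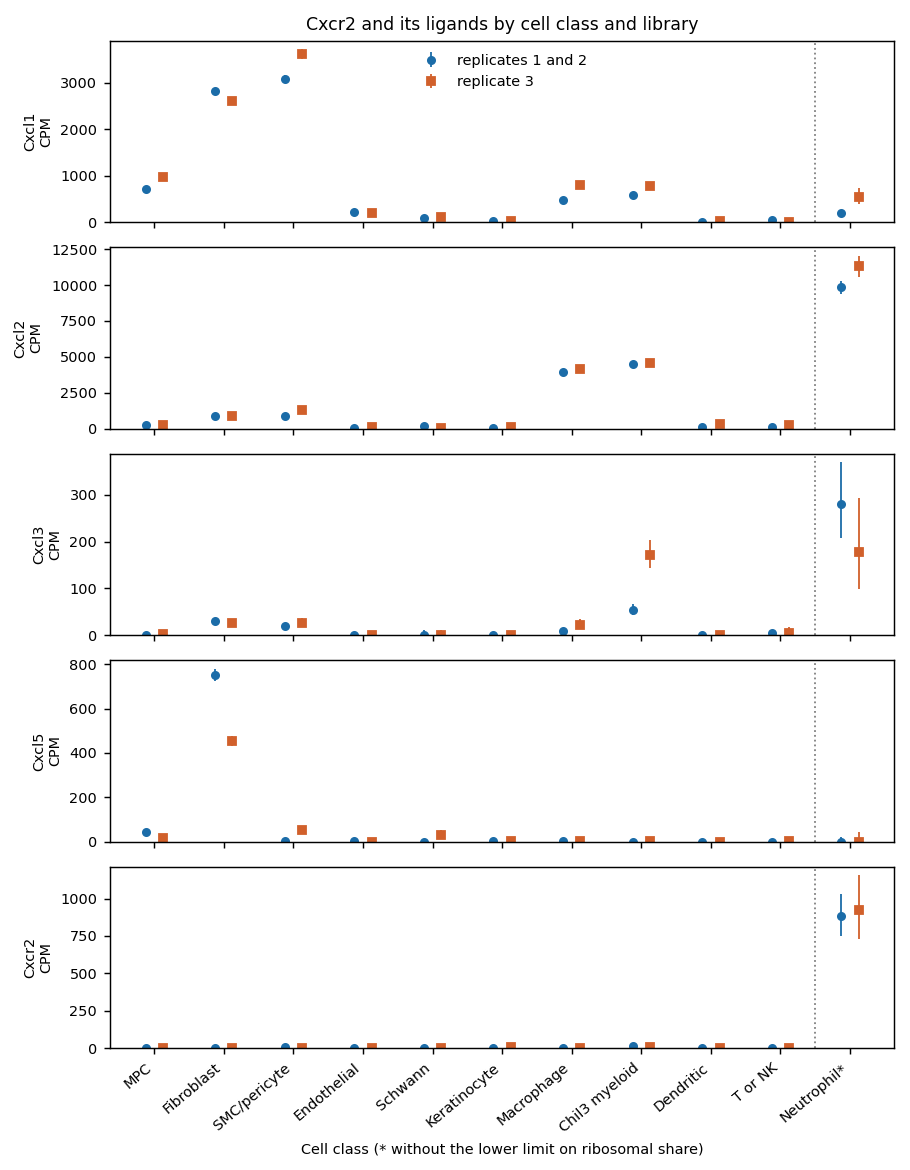
CPM of Cxcl1, Cxcl2, Cxcl3, Cxcl5 and their receptor Cxcr2 in each cell class, 1 point per library with exact 95% Poisson intervals that cover counting error only. Neutrophils (right of the dotted line) come from the fit without the lower limit on the ribosomal share. Cxcr2 stands at 880 and 926 CPM there and at no more than 13.5 CPM in the other classes shown.

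The starts of Cxcl1, Cxcl2 and Cxcl3 lie in a run on chromosome 5 and share a stretch of 11 bases, shown because the 3 ligands are near in sequence and differ in level by class. The 130 bases before each RefSeq start are given 5′ to 3′ on the plus strand of GRCm38.p6, with capitals marking the shared stretch, which holds a match to the NF-kappaB consensus. The windows are chr5:90891115-90891244 for Cxcl1, chr5:90903769-90903898 for Cxcl2 and chr5:90785971-90786100 for Cxcl3.
Cxcl1: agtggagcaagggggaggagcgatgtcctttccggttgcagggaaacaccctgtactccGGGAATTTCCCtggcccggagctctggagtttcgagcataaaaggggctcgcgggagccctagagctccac
Cxcl2: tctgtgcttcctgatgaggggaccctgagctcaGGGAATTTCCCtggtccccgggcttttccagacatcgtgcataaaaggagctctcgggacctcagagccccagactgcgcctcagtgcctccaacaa
Cxcl3: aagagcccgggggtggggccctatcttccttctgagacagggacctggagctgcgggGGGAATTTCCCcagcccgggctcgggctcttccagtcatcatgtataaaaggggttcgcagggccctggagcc
The shared stretch GGGAATTTCCC begins 71 bases before the start of Cxcl1, 97 before Cxcl2 and 73 before Cxcl3. In RefSeq windows from 250 bases before to 50 after each start, both strands searched, it was found in 14 of 32851 windows (0.043%) and in 3 of the 55 windows of members. The NF-kappaB consensus by name was found in 2779 windows (8.5%) and in 12 member windows. ACGTG, a form of the core of the HIF response element, was found in 6447 windows (19.6%) and 9 member windows. The form GCGTG was not searched. Of 62 member symbols, 47 had a window. These are matches of letters and not measured sites.

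Ligands of monocyte receptors were high in macrophages, fibroblasts and smooth muscle cells or pericytes. Ccl2, the main ligand of Ccr2, stood at 1527 and 2496 CPM in smooth muscle cells or pericytes, 1318 and 1185 CPM in macrophages and 1041 and 981 CPM in fibroblasts. MPCs held 148 and 361 CPM, lower by CPM than these 3 classes in each library. Median UMIs per cell were 50043 and 50787 in MPCs against 4783 and 11110 in macrophages. In mean Ccl2 UMIs per cell, MPCs lay below macrophages in the first library but above them in replicate 3. In MPCs 81.7% and 80.7% of Ccl2 UMIs were in the 10% of cells with most, so most MPCs held little of it. Ccl7, a close relative, stood at 1655 and 1504 CPM in macrophages and 852 and 815 CPM in fibroblasts.

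Ccl8 was the most abundant CC ligand of macrophages, at 4233 and 3280 CPM, against 52.2 and 94.0 CPM in fibroblasts. Ccl12 stood at 306 and 304 CPM in macrophages, and 58.6 and 10.8 CPM in Chil3-led cells were the next values. Both separated macrophages from the other classes in each library. Schwann cells of replicate 3 showed 183 CPM of Ccl8 against 6.38 CPM in the other library, and their macrophage markers summed to 2855 CPM in replicate 3 and 1062 CPM in the other, a link that was not tested.

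Ccl11, which draws eosinophils through Ccr3, was a stromal gene here. It stood at 274 and 509 CPM in smooth muscle cells or pericytes and 81.3 and 88.2 CPM in fibroblasts. No other class in the comparison reached 3 CPM. Its receptor Ccr3 had UMIs in T or NK cells of 1 library (35.2 CPM in replicate 3 and 0 in the other) and did not pass the filter.

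Ccl3, Ccl4, Ccl5 and their relatives, the inflammatory CC ligands, were myeloid and lymphoid. Ccl3 stood at 780 and 930 CPM in macrophages and at 230 and 214 CPM in Chil3-led cells. Ccl4 was at 1270 and 1441 CPM in macrophages and 448 and 362 CPM in Chil3-led cells. For both genes macrophages were above Chil3-led cells in each library. Ccl6 showed the opposite order, with 438 and 697 CPM in Chil3-led cells and 372 and 348 CPM in macrophages, and Ccl9 likewise with 431 and 713 against 331 and 368 CPM. In neutrophils Ccl3 reached 1194 and 1531 CPM, Ccl4 897 and 1626 CPM and Ccl6 768 and 759 CPM.

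Ccl5, the ligand of T cells and NK cells, stood at 3803 and 1328 CPM in T or NK cells and made up 60.5% and 33.8% of all member UMIs there. Dendritic cells held 173 CPM in the library of replicates 1 and 2 and 1641 CPM in replicate 3, where 2 of 22 cells held all 625 UMIs, so that the dendritic level of replicate 3 overlapped the T or NK range and rests on those 2 cells.

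The receptors of these ligands marked the same myeloid and lymphoid classes. Ccr1 stood at 284 and 353 CPM in Chil3-led cells, 273 and 170 CPM in macrophages and 1278 and 1317 CPM in neutrophils. Ccr2, the monocyte receptor for Ccl2 and Ccl7, was at 516 and 491 CPM in Chil3-led cells, 288 and 573 CPM in T or NK cells and 105 and 83.2 CPM in macrophages. Macrophages thus held less Ccr2 than Chil3-led cells in both libraries.

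Ligands of Cxcr3 had separate sources. Pf4, first described in platelets, stood at 2716 and 2721 CPM in macrophages and 417 and 605 CPM in Chil3-led cells. The 6 platelet markers were at 0 in macrophages of both libraries. Cxcl10, induced by interferon, was highest in Schwann cells at 367 and 469 CPM, from 8 of 30 and 9 of 24 cells. Cxcl9 differed between the libraries, with 237 CPM in Chil3-led cells of replicates 1 and 2 and 0 UMIs in replicate 3, which allows up to 4.06 CPM. Their receptor Cxcr3 was highest in T or NK cells, at 76.3 and 37.7 CPM.

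Cxcl12, which binds Cxcr4 and Ackr3, was highest in fibroblasts and endothelial cells. Fibroblasts held 891 and 776 CPM and endothelial cells 601 and 991 CPM, and the libraries gave these 2 classes in opposite order. Smooth muscle cells or pericytes held 297 and 269 CPM and MPCs 151 and 169 CPM, below the top classes in both. Against the mean of the others Cxcl12 was higher in fibroblasts (adjusted p = 5.4e-16), endothelial cells (1.3e-14), smooth muscle cells or pericytes (4.1e-12) and MPCs (2.9e-11), all by edgeR. T or NK cells had no UMI of it.

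Cxcr4 had the reverse distribution. It stood at 579 and 697 CPM in Chil3-led cells, 422 and 424 CPM in macrophages, 355 and 314 CPM in T or NK cells and 203 and 276 CPM in dendritic cells. Endothelial cells held 31.6 and 118 CPM, and MPCs and fibroblasts at most 5.02 CPM. In neutrophils it reached 802 and 1483 CPM. Ackr3, the scavenging receptor for Cxcl12, stood with the ligand, at 195 and 231 CPM in fibroblasts, 52.4 and 81.4 CPM in MPCs and 60.6 and 59.7 CPM in endothelial cells.

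Cxcl14, a ligand of skin and stroma, stood at 800 and 741 CPM in fibroblasts, 271 and 180 CPM in Schwann cells and 121 and 171 CPM in keratinocytes. These classes kept their order in both libraries, and MPCs lay below them at 22.6 and 13.5 CPM. Cxcl16 was myeloid, at 512 and 434 CPM in Chil3-led cells, 510 and 368 CPM in macrophages and 401 and 588 CPM in dendritic cells. Those 3 classes overlapped. Its receptor Cxcr6 was at 277 and 797 CPM in T or NK cells and at no more than 4.89 CPM in any other class of the comparison. Cx3cl1 was scarce, with 10.8 and 16.9 CPM in endothelial cells as its highest value, and its receptor Cx3cr1 stood at 84.4 and 52.8 CPM in Chil3-led cells.

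Among homing ligands, Ccl21a came from few cells. Ccl21a, which guides Ccr7-bearing cells into lymphatic vessels, stood at 966 and 502 CPM in endothelial cells, and all its UMIs there came from 10 of 100 and 3 of 62 cells. The 6 lymphatic markers summed to 639 and 354 CPM in that class and none was at 0. Ackr1, the receptor of venules that carries chemokines across the vessel wall, stood at 148 and 113 CPM in endothelial cells. Its UMIs there came from 22 of 100 and 11 of 62 cells. Schwann cells came next, at a mean of 15.7 CPM over the libraries, and fibroblasts held 11.5 and 9.46 CPM. Ackr1 was called higher in each of these classes by edgeR. Ccl19, the other ligand of Ccr7, was highest in smooth muscle cells or pericytes at 130 and 107 CPM, from 41 of 97 and 18 of 53 cells, with 46.4 and 37.3 CPM in fibroblasts.

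Ccr7, the receptor of migrating dendritic cells, stood at 457 and 481 CPM in dendritic cells and 50.2 and 32.7 CPM in T or NK cells. Ccr9 was also highest in dendritic cells, at 152 and 137 CPM. Both pairs of libraries lay far above every other class. Ccl22 differed more, at 265 and 21.0 CPM in dendritic cells, and its relative Ccl17 stood at 24.0 and 21.0 CPM there. Without the cells that held at least 3 UMIs of B cell markers, a choice made after seeing the data, Ccr7 stood at 558 and 566 CPM and Ccl22 at 492 and 24.8 CPM. Ccr9 then stood at 66.4 CPM and 0 UMIs, with 22 of its 95 and 0 of its 52 UMIs left in the remaining 26 and 19 cells. Ccl22 and Ccl17 were called higher by edgeR (adjusted p = 4.7e-09 and 2.8e-05) and by DESeq2 they were not. Ccr4, which binds both, was at 15.8 and 25.1 CPM in T or NK cells.

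Ccl27a, a keratinocyte ligand that draws skin-homing T cells, stood at 472 and 199 CPM in keratinocytes and was at most 14.6 CPM in the other classes compared. Ccl20 was low, at 15.2 and 26.7 CPM in keratinocytes and 21.8 and 2.89 CPM in MPCs. All 175 Ccl20 UMIs of MPCs in the first library came from 2 of 164 cells, and the 21 in replicate 3 from 4 of 143. Its receptor Ccr6 was at 31.6 and 57.8 CPM in T or NK cells and had no UMI in most other classes.

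Among lymphoid ligands Xcl1 stood at 338 and 42.7 CPM in T or NK cells. Its receptor Xcr1, known from cross-presenting dendritic cells, was at 36.8 CPM and 0 UMIs in the dendritic class. Of the 23 Xcr1 UMIs of the first library, 3 (9.06 CPM) were left without the cells that held at least 3 UMIs of B cell markers. The libraries held 145 and 48 T or NK cells, and the NK cluster within them had 30 and 3 cells, which moved with Xcl1 and was not tested. Ccl1 was at 181 and 30.2 CPM there, with all 195 UMIs of the first library in 2 of 145 cells. Ccl24 and Cxcl13 also rest on few cells. Ccl24 stood at 13.5 and 25.7 CPM in Chil3-led cells, with its UMIs in 1 of 128 cells of the first library, and Cxcl13 at 13.3 and 16.4 CPM in fibroblasts, from 7 of 116 and 4 of 89 cells. Xcl1, Ccl1 and Ccl20 passed the edgeR threshold in these classes and did not under DESeq2.

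Of the CC receptors, 6 of 8 tested were higher in T or NK cells (21.7% of all genes), 5 in dendritic cells (17.0%), 4 in Chil3-led cells (22.3%) and 3 in macrophages (22.0%). Of the CXC, CX3C and XC receptors, 5 of 6 tested were higher in Chil3-led cells and 4 in each of macrophages, dendritic cells and T or NK cells, beside the same shares. Xcr1 in Chil3-led cells and Xcr1 and Cxcr3 in dendritic cells differed in sign between the libraries. In endothelial cells 5 of the 49 members were higher (20.1% of all genes) and 7 lower (11.0%), in keratinocytes 9 were higher (26.5%) and 8 lower (18.3%), and in Schwann cells 3 were higher (15.0%) and 4 lower (9.82%). Dendritic cells were higher for 16 (17.0%) and lower for 3 (7.93%), and T or NK cells higher for 15 (21.7%) and lower for 6 (15.3%). The genes that carry the receptor signal, such as the G protein subunit Gnai2, Dock2 and Pik3cg, formed a list of 27, of which 26 were tested. Of these, 23 were higher in Chil3-led cells (22.3% of all genes), 22 in macrophages (22.0%), 21 in dendritic cells (17.0%) and 17 in T or NK cells (21.7%). In MPCs 0 were higher (33.4%) and 7 lower (15.5%), and 1, Rgs16, was higher at an unadjusted p under 0.05 (edgeR).

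MPCs and fibroblasts, the mesenchymal classes most alike, were compared directly. Of the 49 members, 20 were lower in MPCs than in fibroblasts, beside 9.54% of all genes, and 2 were higher, beside 5.84% (edgeR quasi-likelihood test, adjusted p). The median log2 difference was -1.58, against 0.00 over all genes. The lower group held all 4 tested ligands of Cxcr2, 4 of 5 ligands of monocyte receptors and 5 of 6 ligands of the Cxcl12, Cxcl13, Cxcl14, Cxcl16, Cx3cl1 and Xcl1 list.

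Cxcl14 fell by 5.44 ± 0.31 (SE) on the log2 scale from fibroblasts to MPCs (adjusted p = 5.9e-09) and Ccl11 by 5.65 ± 0.33 (2.8e-08). Cxcl12 fell by 2.40 ± 0.21 (3.6e-07), Cxcl5 by 4.32 ± 0.52 (1.2e-05) and Ackr3 by 1.69 ± 0.23 (3.7e-05). Both libraries gave the same sign for each of these genes. Ccl2 fell by 2.08 ± 0.32 (1.2e-04) and Cxcl1 by 1.72 ± 0.35 (1.8e-03), with MPCs below fibroblasts in each library. The members higher in MPCs were Ackr4, a scavenger of Ccl19 and Ccl21, which reached 5.36 and 18.9 CPM there and differed by 3.05 ± 0.79 (adjusted p = 0.018), and Ccl20, whose UMIs came from the few cells given above. Under DESeq2 no member was higher in MPCs.

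The 16 genes of a dissociation stress list, which rise when tissue is digested into cells, moved with part of this contrast. Of them 0 were higher (5.84% of all genes) and 6 lower (9.54%) in MPCs than in fibroblasts. They summed to 8842 and 9797 CPM in MPCs, 13553 and 12833 CPM in fibroblasts and 17809 and 16086 CPM in macrophages. Their part in the chemokine levels was not tested.

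**Figure D3:**
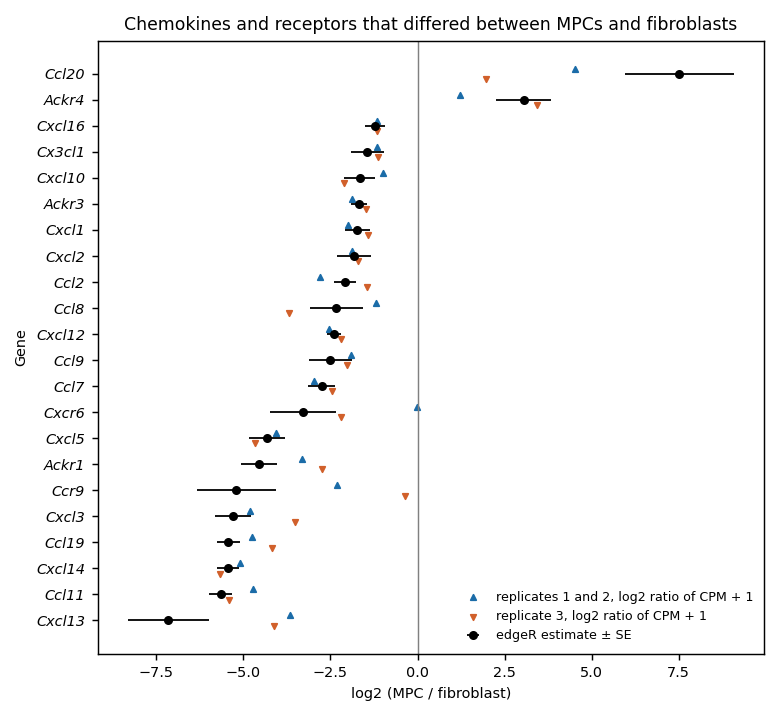
Log2 difference of MPCs from fibroblasts for the 22 members past the threshold, with the edgeR estimate and SE in black and the log2 ratio of CPM + 1 in each library as triangles. Cxcl14, Ccl11 and Cxcl12 lie left of 0 in both libraries, and Ackr4 and Ccl20 lie right of it.

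In the Visium sections, spots were grouped into 8 regions by genes other than the members. The neutrophil region, with 37 spots in A1 and 183 in B1, was led by Csf3, Il1b, Spp1 and S100a9. Its 14 neutrophil markers summed to 22102 and 19026 CPM, with 3 of them at 0 in A1. A second region was led by Ptx3 and Thbs4 and is called the matrix region. It covered 581 and 489 spots, met no marker rule because fibroblast and MPC markers tied at 2 each, and had neutrophil markers at 1105 and 1351 CPM. Further regions were cartilage or bone (362 and 318 spots), skeletal muscle (619 and 151) and 1 led by Lce3c (316 and 237). A region of 460 and 762 spots met the keratinocyte rule with 3 markers but was led by Mta2, Ncbp3 and Nktr, and it is called by Mta2. The last 2 stayed unnamed, with 521 and 986 spots and with 608 and 59 spots. In spots, fewer cells of a type and less RNA per cell cannot be told apart.

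The borders of the regions moved with the rounding of the computation. With another arithmetic kernel, tried after seeing the data, the neutrophil region took in 62 and 304 spots and the matrix region 666 and 553, and no region met the keratinocyte rule. Cxcl3 in the neutrophil region then differed from the mean of the rest by 4.55 on the log2 scale, in place of 4.95.

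Of the 54 members carried, 24 passed the filter and were tested. In the neutrophil region 11 were higher than the mean over the remaining regions, beside 14.8% of all genes, and 2 were lower, beside 15.8% (edgeR quasi-likelihood test, adjusted p). Their median log2 fold change was 1.57 against -0.16 over all genes. With named regions alone 7 were higher, as with a limit of 500 UMIs per spot.

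Cxcl3 and Ccl4 were the ligands furthest above the other regions. Cxcl3 was counted at 1407 and 2363 CPM in the neutrophil region and at 11.7 and 54.6 CPM in the matrix region. Ccl4, which draws macrophages and lymphocytes, reached 755 and 1443 CPM against 6.49 and 38.6 CPM. In both sections the neutrophil region was above every other region for these genes, and the log2 rise over the mean of the rest was 4.95 ± 0.23 for Cxcl3 (SE, edgeR adjusted p = 4.3e-97) and 4.56 ± 0.26 for Ccl4 (1e-67). Ccl6, a myeloid ligand of Ccr1, was at 1613 and 870 CPM against 71.4 and 58.5 CPM in the matrix region. Ccl3, a close relative of Ccl4, was at 686 and 678 CPM against 18.2 and 30.6 CPM. Neither gene overlapped between the regions. Ccl9 was at 137 and 237 CPM in the neutrophil region but also at 130 and 124 CPM in the matrix region.

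Receptors of neutrophils stood with the ligands. Cxcr4 was at 480 and 441 CPM in the neutrophil region and 19.5 and 30.6 CPM in the matrix region, with a log2 rise over the mean of the rest of 3.85 ± 0.32 (SE, edgeR adjusted p = 4.4e-31). Cxcr2 was at 240 CPM (96.6 to 495) and 154 CPM (102 to 223) against 6.49 and 6.65 CPM, from 7 and 28 UMIs in the neutrophil region, and its intervals did not reach the matrix values. Ccr1, Ccr3 and Cxcr6 were also called higher, but each rests on 1 UMI in A1, with 19, 14 and 8 UMIs in B1. Ccr3 lost the call without the filter on low counts.

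**Figure D4:**
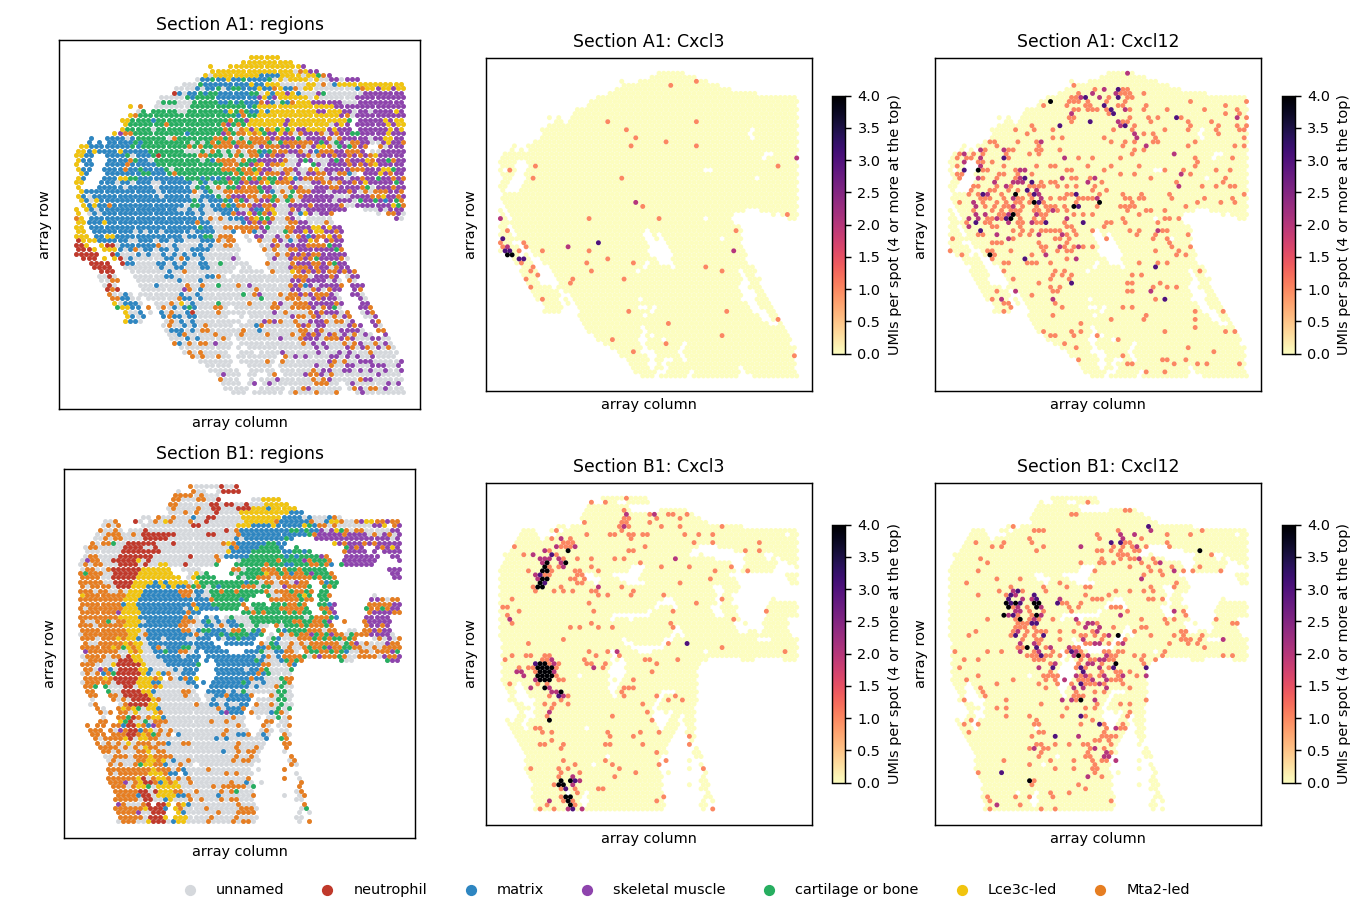
Spots of section A1 (top) and B1 (bottom) at their array positions, coloured by region (left), by UMIs of Cxcl3 (middle) and by UMIs of Cxcl12 (right). Cxcl3 is gathered in the neutrophil region, which holds 41.0% and 64.6% of its UMIs, and Cxcl12 is spread over the matrix region and beyond.

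The neutrophil region made up 1.06% and 5.75% of the spots and 1.29% and 7.87% of all UMIs, but it held 41.0% and 64.6% of the UMIs of Cxcl3, 41.5% and 57.3% of Ccl4 and 30.4% and 46.7% of Cxcr2. Of Cxcl12 it held 1.26% and 1.59%. The authors' Moran's I, a score of how much neighbouring spots resemble each other, placed Cxcl3 at rank 152 of 19132 genes in A1 (0.0633) and rank 26 of 19222 in B1 (0.265). Cxcl12 was at rank 547 in A1 and 300 in B1.

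The members lower in the neutrophil region were Cxcl14 and Cxcl12, both stromal ligands. Cxcl14 was at 68.6 and 38.6 CPM there, from 2 and 7 UMIs, and lower by 2.88 ± 0.48 (log2 scale, SE) than the mean of the rest (edgeR adjusted p = 9.6e-08). Cxcl12 was at 309 and 60.6 CPM, its sections pointed in opposite directions, and the call was lost under DESeq2, relative log expression (RLE) scaling and with named regions alone.

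In the matrix region 5 members were higher, beside 7.45% of all genes, and 2, Cxcl3 and Ccl4, were lower, beside 1.92%. Cxcl12 was counted at 417 and 456 CPM there, above each of the other regions in both sections, and rose by 1.09 ± 0.20 on the log2 scale (SE, edgeR adjusted p = 1.1e-05). Ccl9, Cxcl5, Ccl7 and Pf4 were the other members higher, by 0.86 to 0.99. Cxcl5 stood at 52.0 and 91.8 CPM and Ccl7 at 59.7 and 165 CPM, and cartilage or bone was above the matrix region for Cxcl5 in B1 (107 CPM) and for Ccl7 in A1 (81.7 CPM). Pf4 stood at 394 and 285 CPM there and at 583 and 116 CPM in the neutrophil region, which were in opposite order in the sections. Under DESeq2 these 4 lost the call, and Cxcl5 also lost it under 5 further alternatives.

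Set directly against the matrix region, the neutrophil region was higher for 10 of the 24 members, beside 15.9% of all genes, and lower for 3, beside 19.1%. The median log2 difference was 1.34 against -0.16. Cxcl3 was higher by 5.81 ± 0.36 and Ccl4 by 5.56 ± 0.38 (SE, edgeR). Cxcl12 fell by 2.04 ± 0.42 (adjusted p = 2.4e-05), and Cxcl14 by 2.64 ± 0.53 (1.2e-05). Ccl7 fell by 1.71 ± 0.55 (0.010), from the levels above to 34.3 and 38.6 CPM, and lost the call under DESeq2 and RLE scaling.

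Skeletal muscle was higher for 1 member, Cxcl14, beside 1.32% of all genes, by 1.31 ± 0.25 (SE, edgeR adjusted p = 4.2e-05) at 508 and 876 CPM. It was lower for 0, beside 0.0519%, with 2 at an unadjusted p under 0.05 and 0 by DESeq2. Cartilage or bone was also higher for Cxcl14 alone, beside 3.67%, by 0.90 ± 0.23 (5.9e-03) at 604 and 342 CPM, and lower for 2, Ccl6 and Cxcl3, beside 0.467%. Each of these 3 calls was lost at a finer clustering. In the Mta2-led region 0 members were higher and 0 lower, beside 0.00% of all genes in each direction, with 1 in each direction at an unadjusted p under 0.05 by edgeR and 0 by DESeq2.

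**Figure D5:**
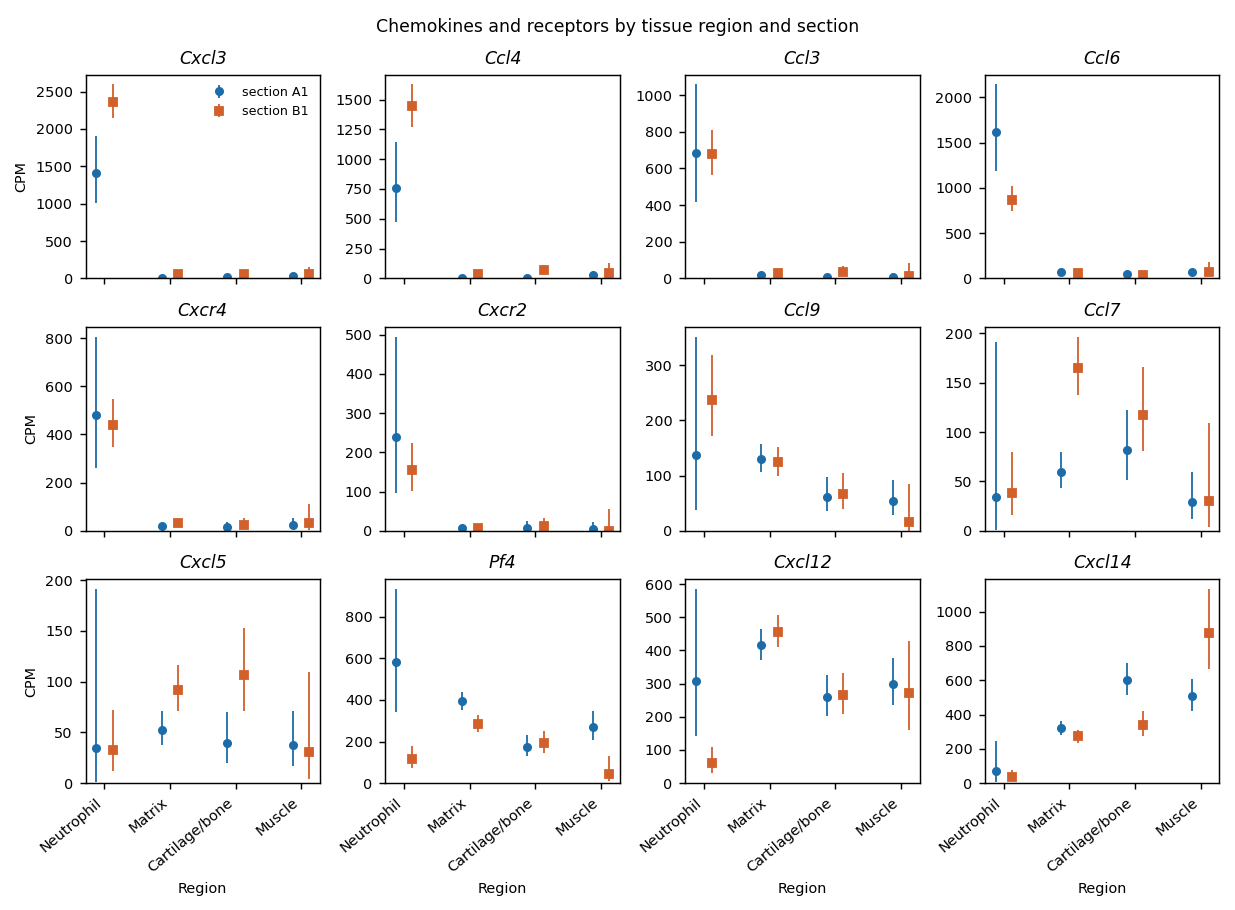
CPM of 12 members in 4 regions, 1 point per section with exact 95% Poisson intervals that cover counting error only. Cxcl3, Ccl4, Ccl3, Ccl6, Cxcr4 and Cxcr2 stand highest in the neutrophil region in both sections, while Cxcl12 is highest in the matrix region at 417 and 456 CPM.

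The signalling list and the stress list were also read in the sections. Of 21 signalling genes tested, 9 were higher (14.8% of all genes) and 0 lower (15.8%) in the neutrophil region, by edgeR. Of the 16 stress genes 12 were higher and 1 lower there, beside the same shares of all genes. They summed to 28005 and 25421 CPM there against 3589 and 3910 CPM in the matrix region, although the sections were not digested. Their part in the chemokine levels was not tested.

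The assays gave the members different ranks, set side by side since mice, genotype, chemistry and tissue handling all differ between them. Ccl2 had 12029 and 12194 UMIs in the libraries (rank 326 and 247 of all genes) and 9 and 24 UMIs in the sections (rank 15365 and 13768). Cxcl1 had 29238 and 26120 UMIs in cells (927 and 1117 CPM) and 64 and 71 in sections (28.3 and 30.8 CPM). Cxcl3 went the other way, with 12.4 and 14.0 CPM over all cells and 44.3 and 288 CPM over all spots. Cxcl12 was alike in CPM, at 228 and 246 in cells and 317 and 301 in sections. Ccl5 had 4763 and 1219 UMIs in cells (151 and 52.1 CPM) and 0 and 1 UMIs in sections (0 and 0.433 CPM). What each probe captures was not tested.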

How the data were processed

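The libraries were droplet scRNA-seq and the sections probe-based Visium. The authors deposited UMI counts per gene and barcode from Cell Ranger 5.0.1 and Space Ranger 2.0.1 (mm10), and for the sections a table whose Moran's I column is a score per gene, and other details are not given in the sources used here. Cells were kept with 200 genes or more, mitochondrial UMIs up to 20% and ribosomal UMIs from 5%, below the 99th percentile of UMIs and of genes, and spots with 100 UMIs or more. Scrublet marked 3 cells in each library, which stayed in. Cells and spots were clustered without the members in Seurat 5.3.0 (2000 variable genes, resolution 0.8), and a cluster was named from at least 3 markers among its 50 leading genes with a lead of 2. Counts were summed per sample and class and tested with edgeR 4.0.16 (quasi-likelihood, TMM, filterByExpr, library or section as a block), adjusted by Benjamini-Hochberg over all genes at 0.05. Each SE was taken as the absolute log2 fold change divided by the square root of the edgeR F statistic. The script was tested on simulated data. The members and lists were chosen with earlier results of these data known. Named genes were up to 4 members with the largest change per comparison, the 2 highest per list and their partners; other members named were chosen after their values were seen. The neutrophil region was set against the matrix region because no region met the rule for wound tissue, a choice made after seeing the clusters. Sums per class share a library or section, which is why the block was used. Alternatives were DESeq2 1.42.0, RLE scaling, no filter on low counts, other clusterings and leaving out a sample. Clustering the spots with another arithmetic kernel (OpenBLAS) and leaving out the smallest unnamed region were added after seeing the data. Values of 1 member are not reported here, though the counts of members include it.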

Additional observations from a re-analysis of the deposited data

Results flagged for a closer look

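Mast cells, 8 and 14 cells that took no part in the comparisons, carried monocyte-attracting ligands. Ccl7 was at 4347 and 2579 CPM and Ccl2 at 2797 and 2997 CPM in them, both above every class compared in both libraries. These values come from few cells and were not tested.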

How the results depend on the processing

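Each count below is followed by the share of all genes called in that direction under the same alternative. With DESeq2 the lower members numbered 12 in MPCs (21.0%), 5 in fibroblasts (15.2%), 11 in smooth muscle cells or pericytes (12.0%), 14 in endothelial cells (11.6%), 15 in keratinocytes (22.3%), 5 in macrophages (15.3%), 6 in Chil3-led cells (17.0%), 6 in dendritic cells (8.75%) and 2 in neutrophils (11.7%), and 0 were higher in MPCs than in fibroblasts (4.96%). In sections DESeq2 gave 1 lower in the neutrophil region (3.48%), 0 higher in cartilage or bone (3.75%) and 1 higher in the matrix region (1.69%), and RLE scaling 1 lower in the neutrophil region (5.21%) and 3 higher in the matrix region (3.38%). Without the filter on low counts 7 were lower in MPCs (7.63%), 12 in endothelial cells (5.37%), 7 in dendritic cells (5.13%) and 5 in neutrophils (6.32%), 6 were higher in Schwann cells (9.66%), 4 higher in MPCs than in fibroblasts (3.67%), 0 lower in cartilage or bone (0.0260%) and 5 lower in the neutrophil than in the matrix region (15.7%). At resolution 0.4, 2 were lower in MPCs (14.1%), 3 in keratinocytes (12.7%) and 3 in the Chil3-led class (14.8%), there a cluster of 208 and 112 cells with 9 macrophage and 3 neutrophil markers, beside which no macrophage class remained. At that resolution 1 was lower in the matrix region (2.39%), and Ccl9 in keratinocytes turned to a log2 fold change of 0.62. At resolution 1.2, 0 were lower in cartilage or bone (0.439%). With unnamed clusters added, 1 was lower in MPCs (7.49%), 1 in fibroblasts (5.73%), 3 in smooth muscle cells or pericytes (6.58%) and 1 in macrophages (10.9%). Without doublets 5 were lower in fibroblasts (11.0%) and 1 in macrophages (13.4%), and without the ribosomal limit 2 in smooth muscle cells or pericytes (8.85%) and 1 in macrophages (6.45%). With 500 UMIs per spot, 7 were higher in the neutrophil region (13.0%), 1 lower in skeletal muscle (0.339%), 0 higher in cartilage or bone (3.56%), 2 lower in the Mta2-led (keratinocyte) region (6.66%), and 3 higher (5.63%) and 5 lower (3.24%) in the matrix region. With named regions alone, 7 were higher (16.9%) and 1 lower (12.3%) in the neutrophil region, 4 lower in skeletal muscle (2.16%) and 5 lower in cartilage or bone (6.05%). Without the smallest unnamed region 4 were lower in the matrix region (3.69%). In cartilage or bone 0 were higher and 1 lower without the replicate block (2.11% and 0.145%) and with the other arithmetic kernel (2.55% and 0.288%). Of 250 calls, 202 kept their direction and call under DESeq2, 243 under RLE, 241 without the filter and 238 without the block, and 0 were called in the opposite direction. The cause of these changes was not tested.

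Leaving out a library or section left values with no test. Of the 250 calls, 238 had the same sign in both libraries or sections and 12 did not. Without replicates 1 and 2, the log2 ratio of CPM + 1 to the other classes was -1.03 for Ccr9 in fibroblasts, -1.02 for Ccl21a in smooth muscle cells or pericytes, -1.88, -0.73 and -0.52 for Cxcl9, Cxcl10 and Xcr1 in Chil3-led cells, -0.52 and -1.08 for Xcr1 and Cxcr3 in dendritic cells, -0.70 for Ccl4 in T or NK cells, and -1.70 and -2.88 for Cx3cr1 and Ccr2 in neutrophils, all called higher over both libraries. Without section B1 it was 0.13 for Cxcl12 in the neutrophil region, called lower. Classes absent at a setting gave no value there. Depth limits members with few UMIs in the neutrophil region of A1, which held 29138 UMIs, such as Cxcl14 with 2 and Cxcr2 with 7.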

Other observations

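Mast cells also held Ccl4 at 6341 CPM in the library of replicates 1 and 2 and at 0 UMIs in replicate 3. Their members summed to 18330 and 5689 CPM.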
